A study of Homo sapiens with 16 samples.

Results

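The genes described are HMGCS1, IDI1, FDPS, FDFT1, SQLE and DHCR7, which encode enzymes of cholesterol synthesis, and INSIG1 and SREBF2, which encode regulators of that pathway. They were picked by symbol, and each matched 1 Ensembl identifier, so they are 8 of 58787 rows of the deposited count table. All 8 were abundant enough to test, among 14193 genes that were. The cells were IMR32, a human neuroblastoma line with amplified MYCN, and the series asks what follows the loss of TPX2, a protein of the mitotic spindle. TPX2 was knocked down with 3 different small interfering RNAs (siRNAs), called si45, si46 and si47, and each group was compared with cells given siNTC, the control siRNA. Every group had 4 replicates, described as biological, 16 libraries in all. The labels name no agent other than these siRNAs, the column names of the table give 48 h, and every group is the same single cell line, so the values describe 1 genetic background.

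Cholesterol is built from acetyl-CoA through mevalonate, isoprenoid units, farnesyl pyrophosphate and squalene, followed by a series of ring modifications. When sterols in the membrane of the endoplasmic reticulum run low, the protein SCAP carries the precursor of the transcription factor SREBP2, the product of SREBF2, to the Golgi apparatus. There it is cut, and the released part enters the nucleus and turns on genes of synthesis and uptake. When sterols are plentiful, INSIG1 holds SCAP back. SREBP2 acts at sterol regulatory elements, usually together with NF-Y, which binds the CCAAT box.

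The library kit counts transcripts at their 3' end, 1 read per transcript whatever its length. Levels in CPM (a gene's counts scaled to the size of its library) thus need no correction for length between genes. How strand, duplicates and reads that match several genes were handled is not given and may affect genes unequally. Levels of different genes can therefore be compared only roughly. Library totals ran from 5318159 to 7864343 counts. TPX2 was at 297 to 359 CPM in the 4 siNTC libraries and at 62.2 to 121 CPM in the 12 knockdown libraries. The labelled cell type was checked on 11 genes of sympathetic neuroblasts, all of which were expressed enough to test, although TH was low at 2.8 CPM in siNTC. Their summed level was 6300 to 6863 CPM in siNTC, 6664 to 7562 in si45, 6909 to 7913 in si46 and 7134 to 8160 in si47, and its part in the results below was not tested. The marker lists of immune, endothelial and epithelial cells each summed to at most 2.57, 1.51 and 0.38 CPM in a library, and the glial marker SOX10 was at 0 in every library.

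In the control libraries the 8 genes spanned a wide range of levels. SQLE was at 271 ± 18 CPM (SD, n = 4), FDPS at 256 ± 23.5, HMGCS1 at 249.7 ± 15.1 and FDFT1 at 165 ± 13.8. SREBF2 was at 77.7 ± 3.06 CPM, DHCR7 at 71.4 ± 9.99, INSIG1 at 60.9 ± 4.66 and IDI1 at 34.2 ± 4.15. The ranges of SQLE, FDPS and HMGCS1 overlapped in that order, as did those of SREBF2, DHCR7 and INSIG1, whereas FDFT1 and IDI1 stood apart from their neighbours. Together the 8 genes took up 0.111% to 0.123% of the counts of a control library and 0.0890% to 0.11% of those of a knockdown library. The most abundant genes weigh most in this sum. With the 8 weighted equally in log2 CPM, si45 replicate 2 (-0.04 from the siNTC mean) lay within the range of the controls (-0.07 to 0.05). All values are shares of a library's RNA, in which fewer cells that express a gene and less of its RNA per cell cannot be told apart.

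Promoter sequences in RefSeq (GRCh38.p14, 250 bases before to 50 after each start site) were on hand for HMGCS1, IDI1, FDPS, DHCR7, INSIG1 and SREBF2, in 10 windows. They are shown because SREBP2 and NF-Y are the known regulators of these genes. The start sites are those of RefSeq and can differ from the GENCODE gene bounds given below. The stretches printed for IDI1, DHCR7 and INSIG1 lie wholly within those bounds. Each line gives 30 bases on the gene's strand, 5′ to 3′, with the match in capitals. CCAAT was searched on both strands and reads ATTGG where it lies on the other strand. The SREBF2 line marks the sterol regulatory element TCACNCCAC, the INSIG1 line the E-box CACGTG, and the others a CCAAT box.
HMGCS1, chr5:43313495-43313524, minus strand, match 100 bases before the start: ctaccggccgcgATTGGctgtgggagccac
IDI1, chr10:1048956-1048985, minus strand, match 87 bases before the start: ctggcgcgagcgATTGGctgcgcggcccgg
FDPS, chr1:155308732-155308761, plus strand, match 122 bases before the start: gacggccagcagCCAATcagcgcggctcat
DHCR7, chr11:71448470-71448499, minus strand, match 94 bases before the start: caggctcctcgaCCAATcacggggcgcgga
INSIG1, chr7:155297811-155297840, plus strand, match 55 bases before the start: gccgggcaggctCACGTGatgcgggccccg
SREBF2, chr22:41832962-41832991, plus strand, match 133 bases before the start: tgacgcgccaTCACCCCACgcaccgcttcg

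CCAAT was found in at least 1 window of all 6 genes and in 7 of the 10 windows, INSIG1 and SREBF2 included, against 34.6% of the 35116 promoter windows in the table. TCACNCCAC was in 1 of the 10 windows, that of SREBF2, against 1.13% of all windows, and CACGTG in 1, that of INSIG1, against 7.26%. These are matches of letters. No window was on hand for SQLE or FDFT1.

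The question put to the 8 genes was whether sterol synthesis transcripts shift when TPX2 is depleted. FDPS fell under each siRNA, to 78.4%, 79.1% and 71.6% of the control mean in si45, si46 and si47, and SQLE fell to 80.8% and 73.6% in si46 and si47. The other 6 did not pass the test against siNTC, fitted without the replicate number. Under si45, 1 of the 8 genes (FDPS) was lower at an adjusted p under 0.05 in edgeR's quasi-likelihood test over all 14193 genes, where 0.324% of all genes were called lower and 1.01% higher. Under si46, 2 of 8 (FDPS and SQLE) were lower, against 1.25% of all genes lower and 2.14% higher. Under si47 FDPS and SQLE were lower, against 4.83% of all genes lower and 4.91% higher. For the mean of the 3 siRNAs FDPS and SQLE were lower, against 3.53% lower and 3.61% higher. None of the 8 was called higher in any of these comparisons, which all share the 4 siNTC libraries. At an unadjusted p under 0.05, 3, 3, 4 and 5 of the 8 were lower in the 4 comparisons, against 5.45%, 7.17%, 11.6% and 10.3% of all genes. The median log2 fold change of the 8 was -0.17, -0.18 and -0.24 under si45, si46 and si47 and -0.19 for the mean, where the medians over all genes tested were 0.00097, 0.0024, 0.0043 and -0.0011.

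Single libraries decided some of these counts. The si45 count became 0 without siNTC replicate 1, 3 or 4 or si45 replicate 1, 2 or 4, and 2 without si45 replicate 3, the knockdown library with the most TPX2 left (121 CPM). The si46 count became 0 without siNTC replicate 1 or 4 or si46 replicate 1, 2 or 4, and 1 without siNTC replicate 2 or 3. Calls over all genes moved in these refits too. Under si45 they went from 190 to between 97 and 158 where the count became 0, and to 406 without si45 replicate 3. Under si46 they went from 482 to between 252 and 352. The part of the remaining TPX2 in this was not tested.

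**Figure D1:**
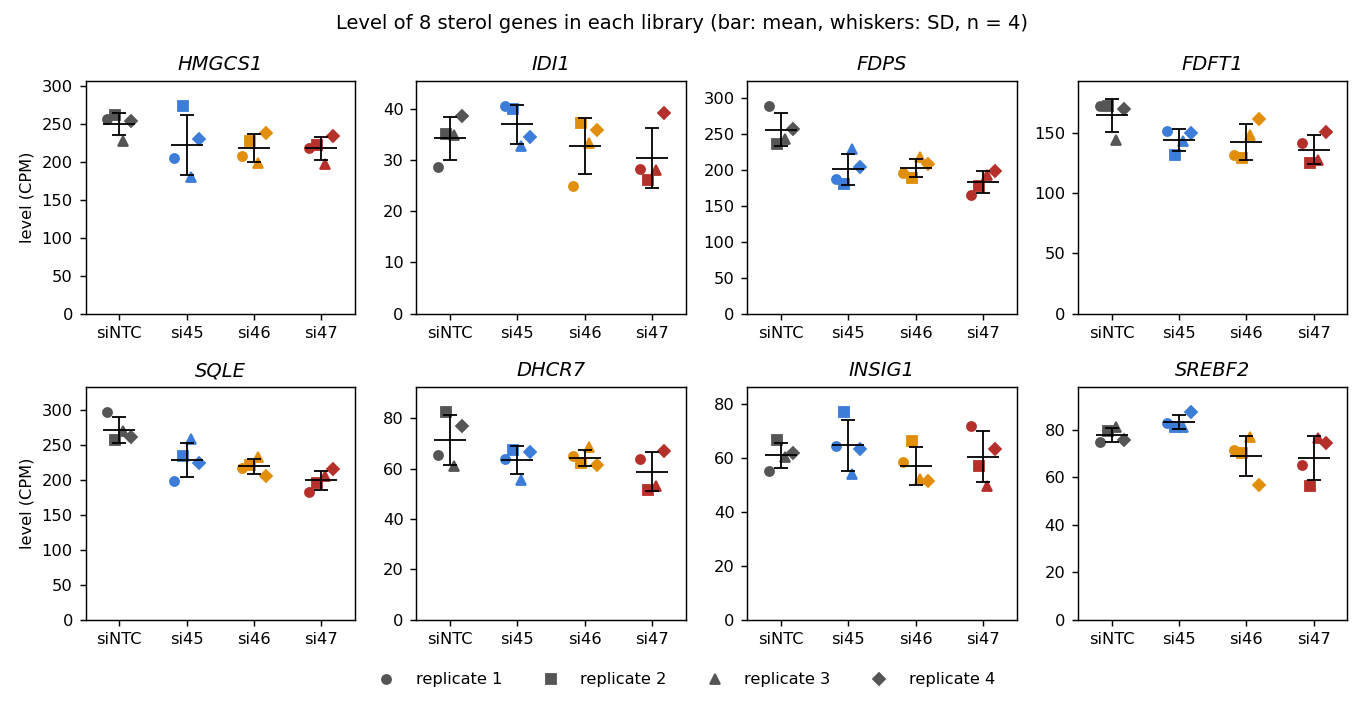
Level of each of the 8 genes (y axis, CPM, from 0) in the 4 libraries of siNTC, si45, si46 and si47 (x axis). Symbols are replicate numbers, the bar is the group mean and whiskers are the SD. All 12 knockdown libraries of FDPS lie below all 4 controls, while SREBF2 is above all controls in the 4 si45 libraries.

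FDPS (ENSG00000160752, chromosome 1, 155308748 to 155320666, plus strand in GENCODE v29 on GRCh38) encodes farnesyl pyrophosphate synthase, which joins isoprenoid units into the precursor of both sterols and protein prenyl groups. It was at 289, 236, 243 and 257 CPM in siNTC replicates 1 to 4. It was at 188, 181, 229.7 and 204 CPM in si45, at 195, 189, 217 and 208 in si46, and at 164, 178, 193 and 199 in si47. Every knockdown library lay below every control library, a pattern shown by 1.03% of all genes tested. FDPS fell by 0.35 (SE 0.0906, edgeR adjusted p = 0.0375), 0.34 (SE 0.0906, adjusted p = 0.0282) and 0.48 (SE 0.0909, adjusted p = 0.000441) on the log2 scale under si45, si46 and si47. Over the 3 siRNAs the mean change was -0.39 with an SE of 0.0724 (edgeR adjusted p = 0.000462). FDPS was thus lower under each siRNA, as were 0.233% of all genes tested.

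The si47 and mean calls of FDPS held without any 1 library. Its si45 call was lost without siNTC replicate 1, 3 or 4 or si45 replicate 1, 2 or 4 (edgeR adjusted p 0.0516 to 0.21), and its si46 call without siNTC replicate 1 or 4 or si46 replicate 1, 2 or 4 (0.0628 to 0.141). FDPS has 8 pseudogenes with rows in the table, of which the highest had at most 14 counts in a library, and its antisense neighbour RUSC1-AS1 had at most 13. How reads that match several copies were counted is not given in the sources used here.

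SQLE (ENSG00000104549, chromosome 8, plus strand) encodes squalene epoxidase, a rate-limiting enzyme that acts after squalene. It was at 297, 256, 270 and 261 CPM in siNTC replicates 1 to 4. It was at 198, 234, 258 and 224 CPM in si45, at 217, 222, 232 and 206 in si46, and at 182, 195, 205 and 215 in si47. Only si45 replicate 3 reached the range of the controls, so 11 of 12 knockdown libraries lay below all of them. For partial separations, here and below, the share of all genes was not computed, so how common they are is not known. SQLE fell by 0.31 (SE 0.0862, edgeR adjusted p = 0.0384) under si46 and by 0.44 (SE 0.0865, adjusted p = 0.000664) under si47. The change under si45 was -0.25 with an SE of 0.0862 and missed the threshold (edgeR adjusted p = 0.198). It passed without si45 replicate 3 (-0.31, adjusted p = 0.0477). Over the 3 siRNAs the change of SQLE was -0.33 with an SE of 0.0691 (edgeR adjusted p = 0.00181). The si47 and mean calls held without any 1 library, while the si46 call was lost without any 1 of the 4 siNTC libraries or si46 replicate 1, 2 or 4 (adjusted p 0.0541 to 0.155).

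FDFT1 (ENSG00000079459, chromosome 8, plus strand) encodes squalene synthase, which uses the product of FDPS in the first step committed to sterols. It was at 172, 172, 144 and 170 CPM in siNTC replicates 1 to 4, at 131 to 151 in si45, at 129 to 161 in si46 and at 125 to 151 in si47. siNTC replicate 3 lay within the range of the knockdown libraries, and 7 of 12 of these were below all controls. The log2 fold changes of -0.19, -0.21 and -0.28 under si45, si46 and si47 did not pass, and nor did the mean of -0.23 (SE 0.0747, edgeR adjusted p = 0.0586). The mean passed without siNTC replicate 3 (-0.29, adjusted p = 0.0344), si46 replicate 4 (-0.25, 0.04) or si47 replicate 4 (-0.24, 0.0415), and also by DESeq2 (adjusted p = 0.0484). The si47 value (edgeR adjusted p = 0.054) passed without siNTC replicate 3 (-0.33, 0.0285), si45 replicate 3 (-0.28, 0.0479) or si47 replicate 4 (-0.33, 0.0369).

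HMGCS1 (ENSG00000112972, chromosome 5, 43289395 to 43313512, minus strand) encodes the cytosolic synthase that makes HMG-CoA, the precursor of mevalonate. It was at 257, 261, 228 and 253 CPM in siNTC replicates 1 to 4, at 181 to 273 in si45, at 199 to 238 in si46 and at 197 to 234 in si47. The groups overlapped, with si45 replicate 2 above all controls and 7 of 12 knockdown libraries below all of them. The log2 fold changes were -0.17, -0.20 and -0.20 under si45, si46 and si47, and the mean was -0.19 (SE 0.0793, 95% interval -0.34 to -0.03, edgeR adjusted p = 0.159).

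IDI1 (ENSG00000067064, chromosome 10, 1039152 to 1049170, minus strand) encodes the isomerase that balances the pair of isoprenoid units used by FDPS. Its libraries ran from 28.5 to 38.5 CPM in siNTC, 32.8 to 40.5 in si45, 24.9 to 37.1 in si46 and 26.1 to 39.1 in si47. All groups overlapped. Its change over the 3 siRNAs was -0.04, with a 95% interval of -0.28 to 0.19 (edgeR adjusted p = 0.888), and the sign differed between si45 (0.11) and si47 (-0.17).

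DHCR7 (ENSG00000172893, chromosome 11, 71428193 to 71452868, minus strand) encodes the reductase of the last step to cholesterol. It was at 65.3, 82.4, 60.9 and 76.9 CPM in siNTC replicates 1 to 4, at 55.7 to 67.6 in si45, at 61.5 to 68.5 in si46 and at 51.3 to 67.1 in si47. The control libraries spread widely and 3 of 12 knockdown libraries were below all of them. The log2 fold changes of -0.17, -0.15 and -0.28 did not pass, nor did the mean of -0.20 (SE 0.0913, edgeR adjusted p = 0.201). An antisense gene in the same place, AP002387.1, held 37.1% as many counts as DHCR7 and changed by 0.10 over the 3 siRNAs with an SE of 0.133 (edgeR adjusted p = 0.728). Whether the counting used strand is not given in the sources used here, so reads of the pair may not be fully separated.

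INSIG1 (ENSG00000186480, chromosome 7, 155297776 to 155310235, plus strand) encodes the anchor that keeps SCAP in the endoplasmic reticulum and is itself an SREBP target. Its libraries ran from 55.2 to 66.5 CPM in siNTC, 53.9 to 76.9 in si45, 51.2 to 66.4 in si46 and 49.6 to 71.8 in si47. All groups overlapped, with 1 library of si45 and 1 of si47 above all controls and 4 of the 12 knockdown libraries below all of them. Its change over the 3 siRNAs was -0.0062, with a 95% interval of -0.20 to 0.19 (edgeR adjusted p = 0.982).

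SREBF2 (ENSG00000198911, chromosome 22, 41833079 to 41907308, plus strand) encodes the SREBP2 precursor. It was at 74.7, 79.6, 80.9 and 75.5 CPM in siNTC replicates 1 to 4. It was at 82.9, 81.0, 81.3 and 87.4 CPM in si45, at 71.4, 70.4, 76.8 and 56.8 in si46, and at 65.2, 56.2, 76.6 and 74.5 in si47. All 4 si45 libraries were above all controls, a pattern shown by 3.36% of all genes tested, while 3 of 4 libraries of si46 and of si47 were below all controls. None of the log2 fold changes of 0.10, -0.17 and -0.19 passed against siNTC (edgeR adjusted p = 0.802, 0.481 and 0.294).

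The antisense gene SREBF2-AS1, named after its values were seen, overlaps SREBF2 on the opposite strand. As strand use is not given, reads of the pair may not be fully separated. It had 10 to 25 counts in the siNTC libraries, 22 to 73 in si45, 32 to 68 in si46 and 29 to 53 in si47. Its level was 2.67 ± 1.20 CPM (SD, n = 4) in siNTC and 7.92 ± 3.44, 7.49 ± 3.57 and 6.97 ± 1.46 in si45, si46 and si47, and 10 of 12 knockdown libraries were above all controls. SREBF2-AS1 rose by 1.57 (SE 0.368), 1.47 (SE 0.37) and 1.38 (SE 0.371) under si45, si46 and si47 and by 1.47 for the mean (SE 0.321, edgeR adjusted p = 0.0181, 0.0204, 0.0136 and 0.00302). Of all genes, 1.01%, 2.14%, 4.91% and 3.61% were called higher. The other tested neighbours of the 8 genes, INSIG1-DT, AC069185.1 (antisense to FDFT1) and AP002387.1, were not called. For the mean these neighbours changed by 0.18, 0.76 and 0.10 (edgeR adjusted p = 0.711, 0.139 and 0.728). The mean call of SREBF2-AS1 held without any 1 library. The si45 call was lost without siNTC replicate 1, 2 or 3 or si45 replicate 1 or 2 (adjusted p 0.065 to 0.12). The si46 call was lost without siNTC replicate 1, 2 or 3 or si46 replicate 2 or 4 (0.0561 to 0.145), and the si47 call without siNTC replicate 2 (0.0574). By limma-voom the si45 and si46 values did not pass (adjusted p = 0.104 and 0.107).

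**Figure D2:**
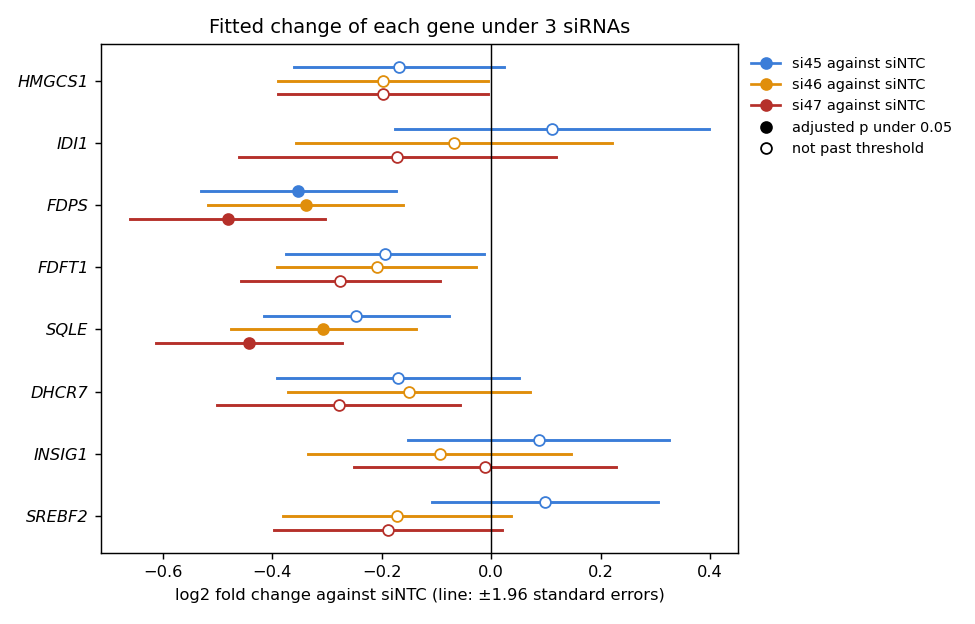
Fitted log2 fold change of each gene against siNTC (x axis) under si45, si46 and si47, with lines for the 95% interval. Filled points passed an adjusted p under 0.05 in edgeR: FDPS under all 3 siRNAs and SQLE under si46 and si47.

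Whether the siRNAs differed from each other was tested directly. None of the 8 genes differed between si46 and si45, si47 and si45, or si47 and si46 (edgeR, adjusted p under 0.05), where 0.0282%, 0.169% and 0.0493% of all genes did. DESeq2 and limma-voom also called 0 of the 8 in each pair. At an unadjusted p under 0.05 there was 1 such gene between si46 and si45 (SREBF2) and there were 2 between si47 and si45 (SREBF2 and SQLE), all lower in the first of the pair, and 0 between si47 and si46. The shares of all genes lower at that threshold were 1.95%, 5.29% and 3.85%. For SREBF2 the log2 difference between si47 and si45 was -0.29 (95% interval -0.49 to -0.08, edgeR adjusted p = 0.283), and that between si46 and si45 was -0.27 (-0.48 to -0.06, adjusted p = 1). For SQLE the difference between si47 and si45 was -0.20 (95% interval -0.37 to -0.03, edgeR adjusted p = 0.402), and for FDPS it was -0.13 (-0.31 to 0.05, adjusted p = 0.663).

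56 other genes of sterol and lipid metabolism were set beside the 8, in 7 lists, and 50 were expressed enough to test. Under si45, 1 was lower and 0 higher (edgeR, adjusted p under 0.05), under si46 2 were lower and 0 higher, and under si47 8 were lower and 1 higher. For the mean, 5 were lower and 1 higher, with a median log2 fold change over the 50 of -0.07. The shares of all genes called lower were 0.324%, 1.25%, 4.83% and 3.53% in these 4 comparisons, and they apply to the counts by list that follow. Single libraries moved these counts by over 1.5 times. The si45 count of 1 became 0 without siNTC replicate 1 or 4 or si45 replicate 1 or 2, and 2 without si46 replicate 4 or si47 replicate 3. The si46 count of 2 became 1 without siNTC replicate 1, 2 or 4 or si46 replicate 1, 2 or 4. The si47 count of 9 became 4 without siNTC replicate 4 or si47 replicate 1 or 2. The mean count of 6 became 3 without siNTC replicate 1 or 4 and 10 without si47 replicate 3. Calls over all genes moved too, under si47 from 1382 to between 932 and 1023 in the refits named. For the mean they went from 1014 to 629 and 632 without siNTC replicate 1 and 4, and to 1290 without si47 replicate 3.

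Among enzymes before squalene, ACAT2, which makes acetoacetyl-CoA at the start of the pathway, was the gene of this list called under each siRNA. Of all genes tested, 0.233% were called lower under all 3 siRNAs. The control level of ACAT2 was 181 ± 18.2 CPM (SD, n = 4), against 133 ± 19.0, 128 ± 6.99 and 128 ± 15.0 in si45, si46 and si47. All 12 knockdown libraries were below all controls, as for 1.03% of all genes tested. ACAT2 fell by 0.44 (SE 0.101), 0.49 (SE 0.101) and 0.50 (SE 0.101) under si45, si46 and si47 and by 0.48 for the mean (SE 0.08, edgeR adjusted p = 0.000126). The si45 call was lost without siNTC replicate 1 or 4 or si45 replicate 1 or 2 (adjusted p 0.0564 to 0.124), and no other ACAT2 call was lost without 1 library. ACAT2 overlaps TCP1 and SOD2 on the opposite strand. MVK, mevalonate kinase, fell by 0.37 for the mean (SE 0.118, edgeR adjusted p = 0.0482). That call was lost without siNTC replicate 1, 3 or 4, si45 replicate 1, 2 or 4, si46 replicate 1, 2 or 4, or si47 replicate 1 or 4 (adjusted p 0.0643 to 0.212). Of the 5 genes of this list, 2 were lower for the mean, with a median of -0.20.

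Of 9 tested enzymes after squalene, 2 were lower and 0 higher for the mean, with a median of -0.08. EBP, a sterol isomerase, averaged 74.1 ± 11.6 CPM (SD, n = 4) in siNTC and 58.1, 57.2 and 57.3 in si45, si46 and si47. The log2 change for the mean was -0.36 with an SE of 0.106 (edgeR adjusted p = 0.0301). The call was lost without siNTC replicate 1, 3 or 4, si45 replicate 1 or 2 or si47 replicate 1 (adjusted p 0.0507 to 0.169). NSDHL, which removes a carboxyl group from sterols, fell under si47 by 0.44 (SE 0.138, edgeR adjusted p = 0.0374), a call lost without siNTC replicate 1 or 4 or si47 replicate 1, 2 or 4 (0.072 to 0.178). CYP51A1, the demethylase of the pathway, was listed at 0 in 11 libraries and at no more than 6 counts in the others, and was not tested. The rows of AC000120.2 and AC000120.3, annotated over CYP51A1 on the same strand, were at 0 in all 16 libraries. Why CYP51A1 had so few counts was not tested, so its values say nothing of its expression.

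None of 5 genes of SREBP processing passed in edgeR in any of the 4 comparisons, and for the mean 1 was lower at an unadjusted p under 0.05, as were 10.3% of all genes. SCAP, the escort of SREBP, changed by -0.16 for the mean with an SE of 0.0741 (edgeR adjusted p = 0.198). SREBF1, which encodes SREBP1, averaged 13.8 ± 2.64 CPM (SD, n = 4) in siNTC against 9.08 ± 2.25 in si47, with a log2 fold change of -0.59 (SE 0.225, edgeR adjusted p = 0.0935). INSIG2 was low, at 4.27 CPM in siNTC, and its mean value was -0.09 (SE 0.268, edgeR adjusted p = 0.896).

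Among genes of uptake and trafficking, STARD4, a sterol carrier and SREBP2 target, rose, opposite in direction to the calls of FDPS and SQLE. STARD4 was at 14.7, 20.2, 18 and 22.7 CPM in siNTC replicates 1 to 4 and at 27.0, 36.8, 29.9 and 30.6 in si47, with no overlap, as for 7.41% of all genes above the controls under si47. It rose by 0.72 under si47 (SE 0.168, edgeR adjusted p = 0.00452) and by 0.48 for the mean (SE 0.141, adjusted p = 0.0291). The si47 call held without any 1 library, and the mean call was lost without siNTC replicate 1, 2 or 3 or si46 replicate 2 (0.0504 to 0.174).

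Of 11 genes of fatty acid synthesis, a branch mostly under SREBP1, 4 were lower under si47, where 4.83% of all genes were, and 1 for the mean, where 3.53% were. None was called higher. FADS1, a fatty acid desaturase, averaged 593 ± 13.5 CPM (SD, n = 4) in siNTC against 507 ± 35.5, 485 ± 17.8 and 457 ± 17.4 in si45, si46 and si47. All 12 knockdown libraries were below all controls, as for 1.03% of all genes tested. FADS1 fell by 0.29 under si46 (SE 0.0752, edgeR adjusted p = 0.0223), by 0.37 under si47 (SE 0.0753, adjusted p = 0.000929) and by 0.30 for the mean (SE 0.0604, adjusted p = 0.00136). The si46 call was lost without siNTC replicate 1, 2 or 4 or si46 replicate 1, 2 or 4 (0.0536 to 0.0825), and the other 2 held without any 1 library. FADS1 overlaps FADS2 on the opposite strand.

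FASN, SCD and ELOVL6, which encode fatty acid synthase, a desaturase and an elongase, fell under si47 by 0.34, 0.29 and 0.34 (SE 0.096, 0.0941 and 0.11, edgeR adjusted p = 0.0203, 0.0402 and 0.0458). FASN lost its call without siNTC replicate 4 or si47 replicate 1 or 2 (adjusted p 0.0738 to 0.129). SCD lost it without any 1 library of siNTC or si47 replicate 1, 2 or 3 (0.0523 to 0.169). ELOVL6 lost it without siNTC replicate 1, 3 or 4, si45 replicate 1 or 2, si46 replicate 1 or si47 replicate 1, 2 or 4 (0.0519 to 0.159). The median over the 11 was -0.19 for the mean.

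The lists that turn mevalonate or sterols to other uses gave no calls. 0 of 8 genes of the non-sterol branches passed, with a median of 0.15 for the mean. Among genes of export, storage and LXR signalling, 0 of 5 tested genes passed. For the mean 1 was lower at an unadjusted p under 0.05, as were 10.3% of all genes. ABCA1, ABCG1, APOE and CYP46A1 had too few counts to test.

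**Figure D3:**
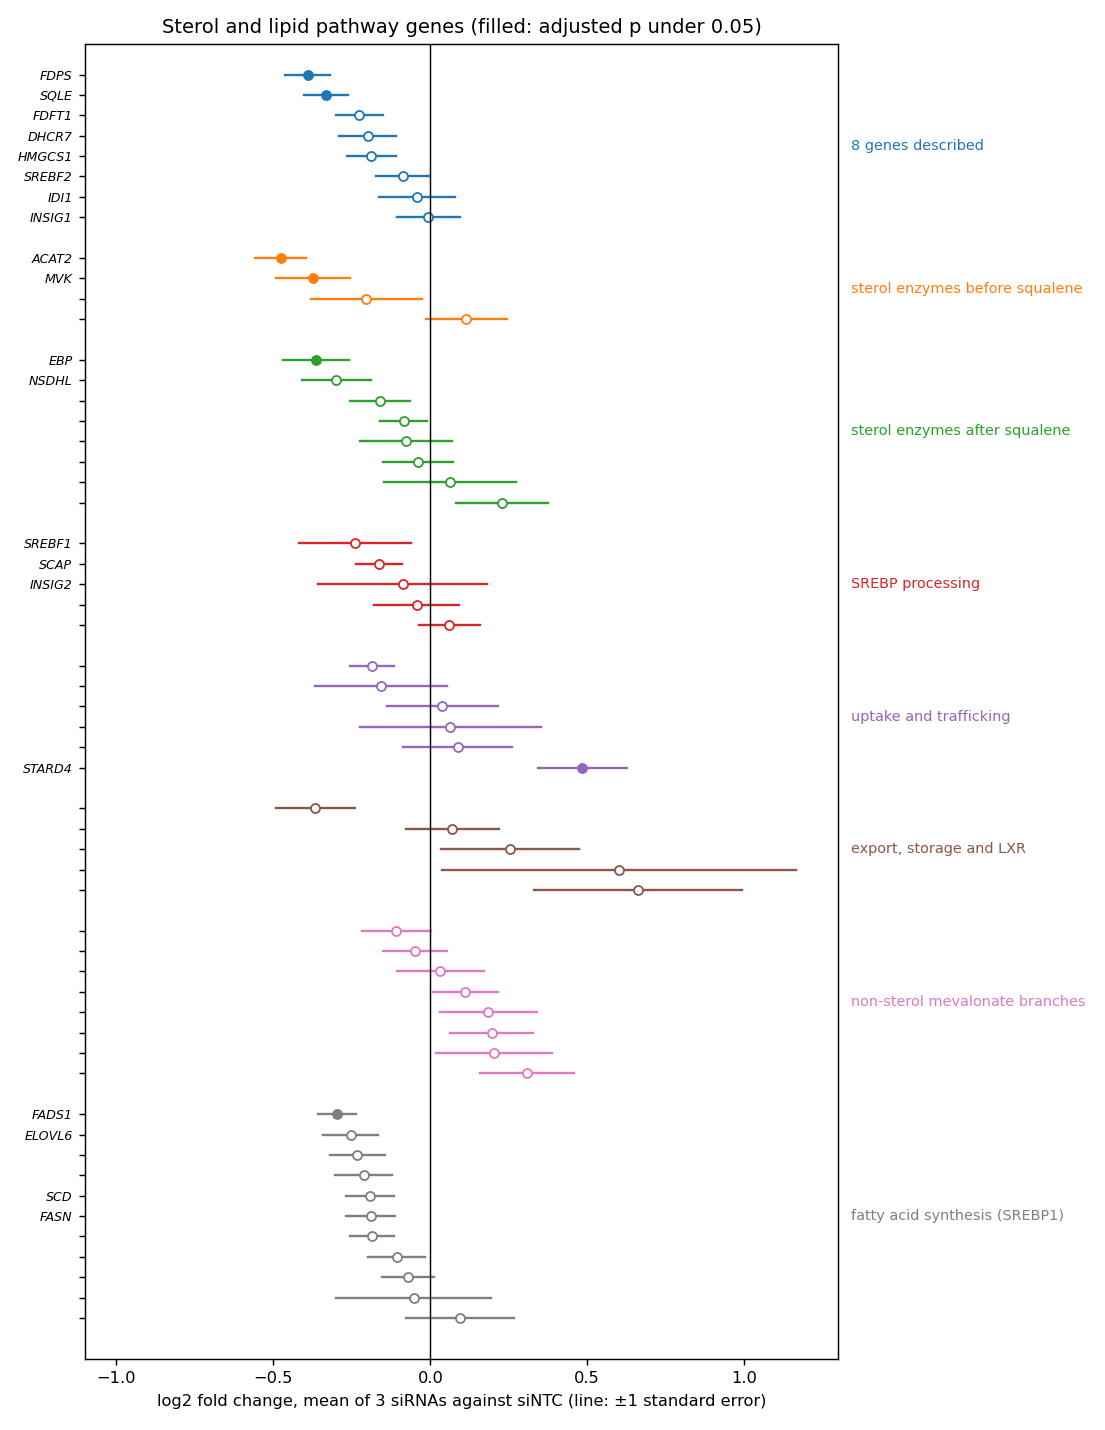
Log2 fold change for the mean of 3 siRNAs against siNTC (x axis) for the 8 genes and 47 of the other tested genes (y axis, grouped by list, with names for genes named in the text), with lines of 1 standard error on each side. Filled points passed an adjusted p under 0.05 in edgeR: 2 of the 8, and ACAT2, MVK, EBP and FADS1 (lower) and STARD4 (higher) of the others.

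Across the 16 libraries 24 of the 28 pairs among the 8 genes were positively correlated in log2 CPM (median r 0.37, from -0.36 to 0.91). On deviations from the group means 16 of 28 were (median r 0.13, from -0.78 to 0.72). These libraries share groups and size factors, so the values are a description. Averaged over the 8, the deviation of a library from the siNTC mean (log2 CPM) ran from -0.07 to 0.05 in siNTC, from -0.17 to -0.04 in si45, from -0.25 to -0.15 in si46 and from -0.37 to -0.10 in si47. The lowest was si47 replicate 2, and si45 replicate 2 overlapped the controls. In si45 replicate 3 HMGCS1 was at its lowest of all libraries while SQLE and FDPS were at their highest of the knockdown libraries. IDI1 in si47 replicate 4 reached 39.1 CPM, while its other si47 libraries had 26.1 to 28.1.

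**Figure D4:**
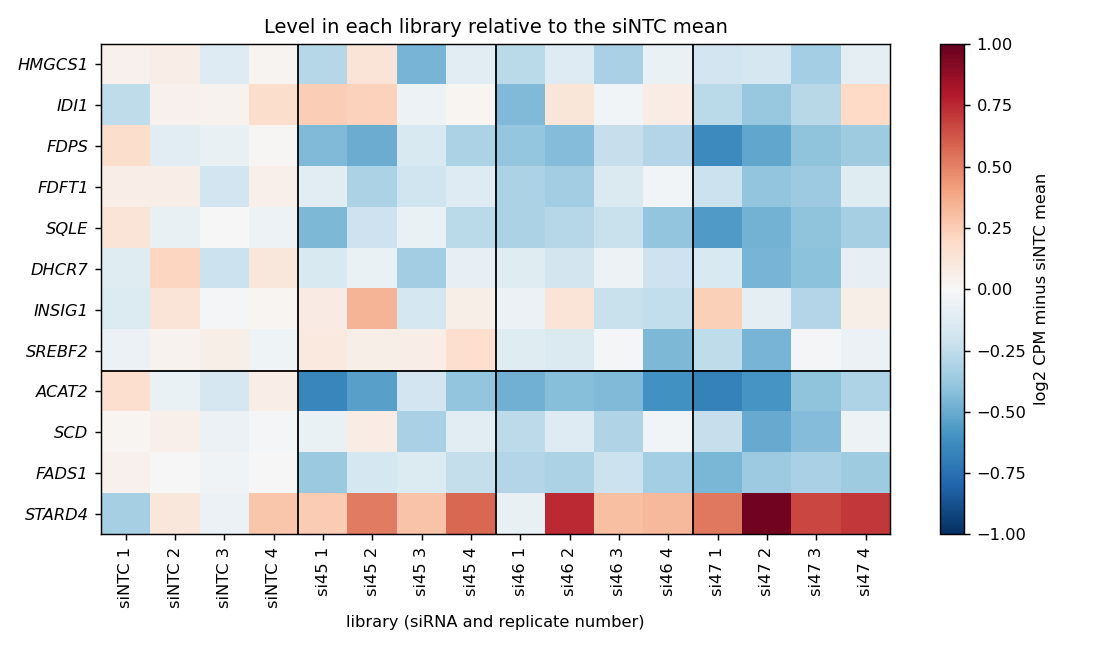
Log2 CPM of each gene minus its siNTC mean (colour, blue lower and red higher) in the 16 libraries (x axis), for the 8 genes above the line and 4 other pathway genes below it. FDPS reaches -0.63 in a si47 library and INSIG1 0.34 in a si45 library, while STARD4 is red in the si47 libraries, up to 0.97.

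Genes outside the lists were ranked by how closely their log2 CPM followed the average profile of the 8, among 7040 genes with a mean of at least 20 CPM. The likeness is Pearson's r over the 16 libraries, which share siRNA groups, so it mixes the knockdown with differences between replicates. The closest were NTHL1 (r = 0.83), CDCA7 (0.82), FEN1 (0.82), ORC6 (0.82) and DUT (0.81). On deviations from the group means, r was 0.80 for NTHL1 and 0.31 to 0.48 for the other 4. FEN1 overlaps FADS2, of the fatty acid list, on the same strand. The most opposite were BLCAP (-0.84), TP53INP1 (-0.83), FBXW7 (-0.82), STAT3 (-0.82) and PHLDA3 (-0.81), with -0.46 to -0.25 on deviations from the group means. NTHL1 itself had a mean log2 fold change of -0.10 that did not pass (edgeR adjusted p = 0.632).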

How the data were processed

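The deposited file holds raw counts per Ensembl gene, whole numbers that the authors did not normalize. Per the labels' protocols, total RNA was prepared with Lexogen's QuantSeq 3' kit and sequenced single-end. The submitters' processing notes name GRCh38, FastQC 0.11.7, STAR 2.7.2b, edgeR 3.36.0 and limma 3.50.3. The counter, the annotation, strand use and duplicate handling are not given in the sources used here. The siRNA and replicate in each column name gave its sample. The 24 pairs of libraries within groups differed by more than sampling noise (chi-square per degree of freedom 4.39 to 10.2).

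Genes were kept by filterByExpr (minimum count 10, minimum total 15), scaled by TMM and fitted over all 16 libraries with edgeR 4.0.16 (robust quasi-likelihood, group means, no covariate) in R 4.3.3. p-values were adjusted by Benjamini-Hochberg over 14193 genes. A standard error is the log2 fold change over the square root of F, and a 95% interval uses the normal approximation. The pipeline was also run on simulated counts of independent libraries, without an effect of the replicate number. The outcome is not reported here and is not used for the calls above. Alternatives included DESeq2 1.42.0 and limma 3.58.1.

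The 8 genes, the lists and the rules were chosen with earlier results of these data known. Named were the 8 genes, TPX2, every listed gene past the threshold in a siRNA comparison, INSIG2, SREBF1 and SCAP whatever their values, and the 5 closest and 5 most opposite profiles. Some genes this rule names are counted in the totals but not reported here. Positions came from GENCODE v29. The labels do not say that replicate numbers pair samples. By the rule used, numbers paired 2 groups where deviations from the group means correlated at over 0.1 for every number. Only si45 with si47 passed (0.12 to 0.242), against 0.0716 to 0.247 for si45 with si46 and 0.0854 to 0.209 for si46 with si47. In each of these pairs 8 of 8 libraries correlated best with their own number. The main fit does not use the replicate number. The block changed no call of the 8 genes between siRNAs.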

Additional observations from a re-analysis of the deposited data

Results flagged for a closer look

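In 108 groups of 4 libraries (levels of the genes named above, total counts and the average deviation of the 8 genes), 4 held a library whose distance to its nearest neighbour took up more of the group's range than Dixon's critical value at 95% allows. Chance picks out about 1 group in 20, or 5.4 of the 108. For TPX2 it was si45 replicate 3, with 121 CPM beside 79.4 to 85.1 (ratio 0.862). For IDI1 it was si47 replicate 4, with 39.1 CPM beside 26.1 to 28.1 (ratio 0.845). For FDFT1 it was siNTC replicate 3, with 144 CPM beside 170 to 172 (ratio 0.923). For EBP it was si46 replicate 2, with 46.6 CPM beside 59.9 to 61.1 (ratio 0.916).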

How the results depend on the processing

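Among the genes refitted one by one under each setting, low genes had the widest errors (INSIG2, SREBF1 and SREBF2-AS1). The alternatives for genes other than the 8 were chosen after seeing the data. Among the 56 comparisons of the 8 genes, RLE factors changed no call.

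The replicate numbers did not pair siNTC with any siRNA by the stated rule (r of deviations as low as 0.0188), although every library of siNTC and si45 correlated best with its own number, against 5 of 8 for siNTC with si46 and with si47. With the replicate number as a block, 2 of the 8 genes were called under si45 (1 without it) and 4 for the mean (2 without it), and 5, 5 and 14 other pathway genes under si45, si46 and for the mean. The block also raised the calls over all 14193 genes, from 190 to 577 under si45, 482 to 1073 under si46, 1382 to 2198 under si47 and 1014 to 1817 for the mean. The calls of the 8 added by the block were SQLE under si45 (-0.25, edgeR adjusted p = 0.044), FDFT1 under si47 (-0.28, 0.0104) and for the mean (-0.23, 0.0107), and HMGCS1 for the mean (-0.19, 0.0245). The pairing moved HMGCS1 between si47 and si46 to 0.00039 and INSIG2 under si47 to -0.00079.

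Fitting only the groups compared left 0 of the 8 genes under si45 (FDPS -0.35, edgeR adjusted p = 0.0705). DESeq2 called 3 other pathway genes under si45 and FDFT1 under si47 (adjusted p = 0.0406). It also called more of all genes than edgeR, 292 against 190 under si45 and 1617 against 1382 under si47. Between si47 and si46, HMGCS1 was 0.0034 with upper-quartile factors and 0.0022 by limma-voom, and INSIG2 under si47 was -0.024 by limma-voom. ELOVL6 under si47 lost its call with upper-quartile factors, no low-count filter or only the groups compared (adjusted p 0.0509 to 0.068), MVK for the mean with upper-quartile factors and limma-voom (0.0519 and 0.0558) and SCD under si47 with only the groups compared (0.0506). The cause was not tested.

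Leaving out 1 library in turn gave 0 to 2 of the 8 genes under si45, 0 to 2 under si46, 2 to 3 under si47 and 2 to 3 for the mean. It gave 0 to 2, 1 to 3, 4 to 11 and 3 to 10 other pathway genes. Over all genes it gave 97 to 406, 252 to 579, 932 to 1664 and 629 to 1388 calls. The median of the 8 ran from -0.22 to -0.098 under si45, -0.23 to -0.17 under si46, -0.32 to -0.19 under si47 and -0.25 to -0.14 for the mean.

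Values near 0 changed sign in these leave-outs. Between si46 and si45, DHCR7 ran from -0.037 to 0.050, FDFT1 from -0.077 to 0.028, FDPS from -0.038 to 0.084, HMGCS1 from -0.12 to 0.085 and SQLE from -0.13 to 0.0012. HMGCS1 ran from -0.12 to 0.085 between si47 and si45 and from -0.039 to 0.046 between si47 and si46, where SREBF2 ran from -0.093 to 0.066 and INSIG1 from -0.013 to 0.17. Against siNTC, IDI1 ran from -0.12 to 0.018 for the mean and -0.15 to 0.048 under si46. INSIG1 ran from -0.053 to 0.042 for the mean, -0.0016 to 0.16 under si45 and -0.10 to 0.072 under si47. INSIG2 ran from -0.21 to 0.041 for the mean and -0.12 to 0.14 under si47.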
